A study of Mus musculus with 8 samples.

Results

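Ccl21a-expressing thymic epithelial cells (TEC) with little or no Ccl11 mRNA, from adult wild-type mice, were examined by CITE-seq, in which antibodies coupled to DNA barcodes are read in the same droplet as the transcripts of each cell. Members were the 16-week cells in which the UMIs (unique molecular identifiers, counts of single mRNA molecules) of Epcam, Krt8, Krt18 and Krt5 summed to at least 3 and exceeded those of the stromal genes Col1a1, Col1a2, Col3a1 and Dcn, with Ccl21a at 0.2% of UMIs or more, at least 1 UMI of Krt5 or Krt14, no Aire UMI and Ccl11 under 0.05% of UMIs. The rule kept 518 cells, 177 of well 1 and 341 of well 2, of 4208 epithelial cells at 16 weeks and of 9953 cells in the series. They made up 12.3% of the 16-week epithelial cells (exact 95% binomial interval 11.3% to 13.3%), 14.5% in well 1 (12.6% to 16.7%) and 11.4% in well 2 (10.3% to 12.6%). The material was thymic stroma of C57BL/6 wild-type mice without genetic or drug treatment, taken at 16 weeks and at 1 week of age. Thymi of an age were pooled, depleted of CD45+ cells and sorted into a mixture of EpCAM1+ and EpCAM1- cells negative for CD45 and Ter119, which was loaded on 2 wells per age, giving 4 mRNA and 4 tag libraries. The wells were therefore splits of 1 pool, the age groups were 1 sample each, and no test between samples was possible. Values are given for both wells, SDs are over n = 2 wells, intervals cover counting error only, and no p-value was computed.

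CCL21 is the ligand of CCR7 and draws positively selected thymocytes from the cortex towards the medulla. In the mouse thymus it is made chiefly by a subset of medullary TEC that carries the basal keratins Krt5 and Krt14 and is distinct from the Aire-expressing medullary cells, which express tissue-restricted self-antigens for the deletion of autoreactive T cells. Ccl21a-expressing cells overlap with the intertypical TEC, a Sca1-bearing population with features of both cortical (cTEC) and medullary (mTEC) lineages in which progenitor activity has been sought. Ccl11 (eotaxin-1) is a chemokine of eosinophils, made also by fibroblasts. The 1555 Aire-positive cells at 16 weeks (at least 2 Aire UMIs, 397 and 1158 in the wells) served as the main comparison, next to 259 cells of the same rule with Ccl11 (77 and 182) and 109 cells of the same rule at 1 week (52 and 57).

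The surface readout was a set of DNA barcodes, 1 for each of 27 tagged reagents. The barcodes of the 6 reagents on which the surface results turned are shown as they were counted, from 5′ to 3′, with no part marked by capitals. UEA1, a lectin from Ulex europaeus that binds the surface of mTEC, was read through a tag on streptavidin-PE.
Sca1: ttcctttcctacgca
MHCII: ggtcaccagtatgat
CD80: gacccggtgtcattt
UEA1 (SAV_PE): aacctttgccactgc
Podoplanin: gggcgatttagtgtg
CD9: tagcagtcactccta

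Depth differed between the classes compared. The 2 libraries at 16 weeks held 21281389 and 45480790 UMIs. The members had a median of 4179 and 3630 UMIs per cell in wells 1 and 2, against 9575 and 8111 in Aire-positive cells. The Aire-positive rule asks for more than 1 UMI of a single gene and so favours deeper cells. The rule of the members asks for no Aire UMI and so favours shallower cells. That step took 1846 cells to 777, and all 16-week epithelial cells had a median of 6529 and 5834 UMIs. The median share of mitochondrial UMIs in members was 9.23% and 10.98%. It was 5.38% and 7.45% in Aire-positive cells and 8.54% and 9.17% in cells with Ccl11. The part of depth and of the mitochondrial share in the differences below was not tested, except where a value under thinning to 2000 UMIs per cell is given. Of 15 barcodes that occurred in more than 1 library, none belonged to a member.

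Ccl21a and Aire UMIs were also found in cells chosen by stromal genes, and their source there was not tested. As a background, 1616 cells at 16 weeks were taken in which the 4 stromal genes held at least 10 UMIs and at least 10 times the UMIs of the 4 epithelial genes. Of these fibroblast-rule cells, 96.9% held a Ccl21a UMI at a median depth of 12174 UMIs, yet their median Ccl21a share was 0.0421% and 1.86% of them reached the limit of 0.2%. Aire UMIs were found in 51.0% of them and 2 or more in 19.7%, which is the limit of the Aire-positive class. Ccl11, which fibroblasts also make, was found in 88.5% of them.

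The rule fixed a high level of Ccl21a, which is given as a description. Ccl21a (chromosome 4, 42772860 to 42773993, minus strand, GRCm38) stood at 12726 and 9828 CPM (UMIs of a gene summed over the cells of a class and scaled to a class total of 1000000) in the members of wells 1 and 2. It stood at 15050 and 14082 CPM in cells with Ccl11, at 3439 and 3801 CPM in Aire-positive cells and at 536 and 464 CPM in fibroblast-rule cells. Of the Aire-positive cells, 30.9% reached the limit of 0.2% themselves. Among members the Ccl21a share had a median of 0.437% and ran from 0.224% at the 5th percentile to 2.08% at the 95th. At least 0.5% was reached by 224 members, at least 1% by 89 and at least 2% by 28. A total of 26 cells, 5.02% of the members, held 50.3% of all 33971 Ccl21a UMIs. Of the near-identical copies of the gene, Ccl21b, Gm13304 and Gm10591 had no UMI and Gm21541, with 99.3% identity over the aligned transcript, had 36 UMIs in the members. STARsolo, the authors' counting tool, by default leaves out reads that match several genes, so the level of each copy remains uncertain.

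Cells just inside and just outside the limits of the rule were described. The 69 members with a Ccl21a share from 0.2% to 0.25% had 665 CPM of Krt5, 134 CPM of Mill1 and 563 CPM of Ly6a. The 100 cells just outside, from 0.15% to 0.2%, had 880 CPM of Krt5, 54.8 CPM of Mill1 and 694 CPM of Ly6a. At the Ccl11 limit, 147 members lay between 0.025% and 0.05% and 118 cells with Ccl11 between 0.05% and 0.1%, and Krt5 stood at 1894 and 1530 CPM in them. The 401 cells excluded by exactly 1 Aire UMI had 1670 CPM of Krt5 and 1149 CPM of Krt14, next to 1666 and 1236 CPM in all members. No Ccl11 UMI was found in 280 members (54.1%), 1 UMI in 175 and 2 or more in 63.

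The label of the cells was checked against the markers Ccl21a, Krt5, Plet1, Itgb4 and Mill1. Krt5, a basal keratin that the rule used, stood at 1700 and 1644 CPM in members and at 648 and 755 CPM in Aire-positive cells. Itgb4, the beta subunit of the hemidesmosome integrin, stood at 216 and 223 CPM, against 113 and 119 CPM, a ratio under 2. Mill1, an MHC class I-like gene, stood at 101.9 and 82.8 CPM in members, at 31.7 and 24.5 CPM in Aire-positive cells and at 1.73 and 2.86 CPM in fibroblast-rule cells. Plet1, a surface marker of early thymic epithelium, went against the label, with 6.74 and 16.2 CPM in members, 16.4 and 18.2 CPM in Aire-positive cells and a UMI in 5.79% of members. The plot of levels by class shows these genes together with genes named below.

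**Figure D1:**
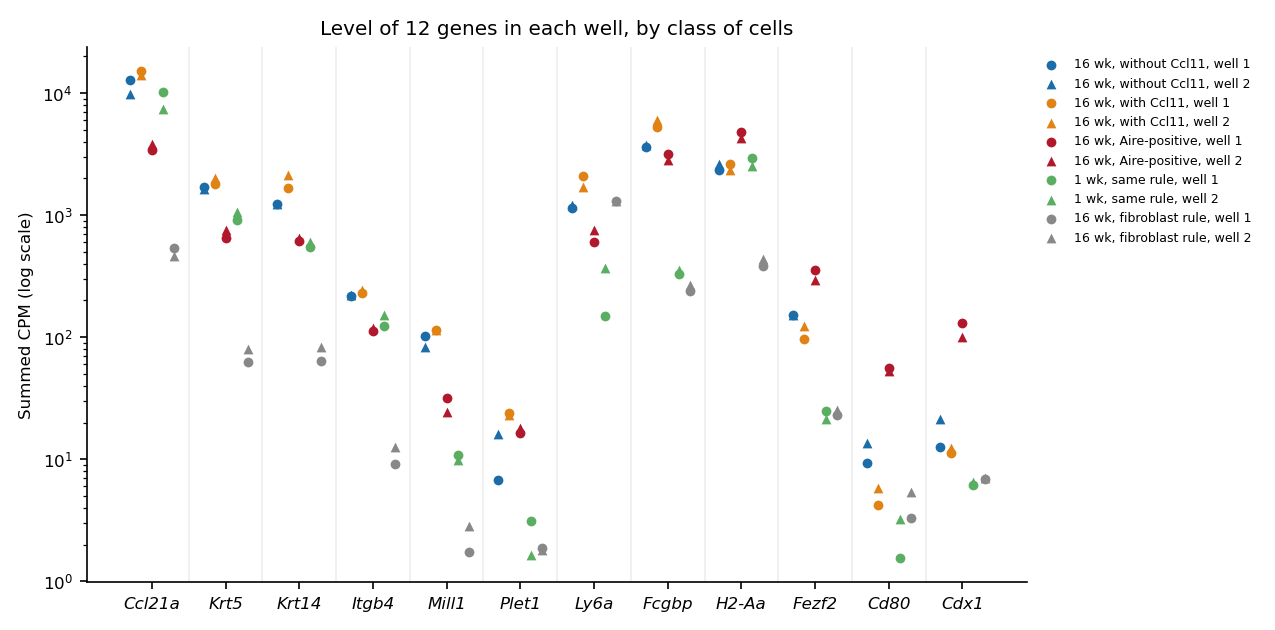
Summed CPM (log scale) of 12 genes in each well (circles well 1, triangles well 2), for Ccl21a TEC without and with Ccl11, Aire-positive cells, fibroblast-rule cells at 16 weeks and 1-week cells of the same rule. Against Aire-positive cells Mill1 is past 2-fold higher without Ccl11 in both wells and Cd80 and Cdx1 are past 2-fold lower, while Itgb4, Fezf2 and H2-Aa are not past 2-fold in both.

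The members were set against Aire-positive cells to describe what distinguishes them from the best known medullary TEC. Dst, Lamb3, Jag2, Fst, Stat2, Runx1 and Scx were higher in the members. Cd80, Cd40, Cdx1, Cdkn1c, the chemokines Ccl5 and Ccl20 and 8 of 15 cell cycle genes were lower. A gene was called higher or lower where its CPM differed by at least 2-fold in each of both wells, among 19054 genes with at least 20 UMIs over both classes, leaving out the 12 genes of the rule. By this criterion 401 genes were higher (2.1%) and 1679 lower (8.81%), and the median log2 ratio of all genes tested was -0.09. The larger number of lower genes stood beside the deeper Aire-positive class. A gene could reach 20 UMIs through that class alone, so some lower calls rest on few UMIs in members. With every cell thinned to 2000 UMIs, 205 genes were higher and 729 lower.

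Mill1 had the largest smaller fold of the wells among 63 higher genes with at least 200 UMIs and a symbol of a known gene. Its log2 ratio was 1.72 ± 0.05 (SD, n = 2 wells), and its pooled ratio was 3.39 (95% interval 2.92 to 3.92). Scx, which encodes scleraxis, a transcription factor known from tendon, had 71.6 and 67.2 CPM in members against 17.7 and 21.9 CPM (log2 ratio 1.82 ± 0.28). Scx stood at 2.36 and 3.32 CPM in fibroblast-rule cells, so the members were above both classes.

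Further named higher genes were Dmd, Lmod1, Carmn, Plod2 and Scn7a. Of all 30 named genes, higher and lower, 21 were still past the fold after thinning and 6 among the 37 members and 55 Aire-positive cells without a stromal UMI, where 26 of the 30 had 3 UMIs or fewer in a class and well, so that calls kept or lost there rest on few UMIs. Scn7a had 11 and 13 UMIs there in members against 2 and 7, and Plod2 11 and 9 against 6 and 21. Dmd, which encodes dystrophin, had 93.5 and 131 CPM in members and 33.0 and 41.3 CPM in Aire-positive cells. Lmod1, a leiomodin known from smooth muscle, had 53.9 and 79.7 CPM against 19.95 and 25.9 CPM. Carmn, a long noncoding RNA of smooth muscle, had 157 and 156 CPM against 54.3 and 64.7 CPM. Plod2, a lysyl hydroxylase that modifies collagen, had 120 and 109 CPM against 40.2 and 44.1 CPM. Scn7a, a sodium channel subunit, had 117 and 97.4 CPM against 25.7 and 38.1 CPM. Plod2 and Scn7a stood at similar levels in fibroblast-rule cells (122 and 109 CPM, and 117 and 100 CPM), and the part of stromal RNA in their difference was not tested.

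Stromal and mural marker sums were set beside these genes. The fibroblast marker list (9 genes, none at 0) summed to 844 and 952 CPM in members, 621 and 756 CPM in Aire-positive cells and 23078 and 22216 CPM in fibroblast-rule cells. Col1a1, Col1a2, Col3a1 and Dcn of this list were used by the epithelial and the fibroblast rule. The contrast with fibroblast-rule cells was therefore fixed by the choice of cells and is a description only. The mural marker list (6 genes, none at 0) summed to 772 and 1061 CPM in members, 533 and 728 CPM in Aire-positive cells and 1805 and 1305 CPM in cells with Ccl11. None of the 5 fibroblast markers outside the rule and none of the 6 mural markers was past the fold against Aire-positive cells.

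Regulators and enzymes completed the named higher genes. Runx1, a transcription factor of the runt family, had 194 and 182 CPM against 75.2 and 72.8 CPM, and Stat2, a transducer of type I interferon signals, had 165 and 154 CPM against 50.2 and 61.9 CPM. Runx1 and Stat2 stood at 70.8 and 75.1 CPM and at 56.2 and 60.4 CPM in fibroblast-rule cells, below the members. The interferon-inducible Ifi202b, the metalloprotease-disintegrin Adam28, the adhesion molecule Sdk2, the 5-oxoprolinase Oplah, Nrbp2 and Kctd4 had log2 ratios from 1.31 to 1.53. Of these, Adam28, Sdk2, Ifi202b and Kctd4 were under 5 CPM in both wells of fibroblast-rule cells.

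**Figure D2:**
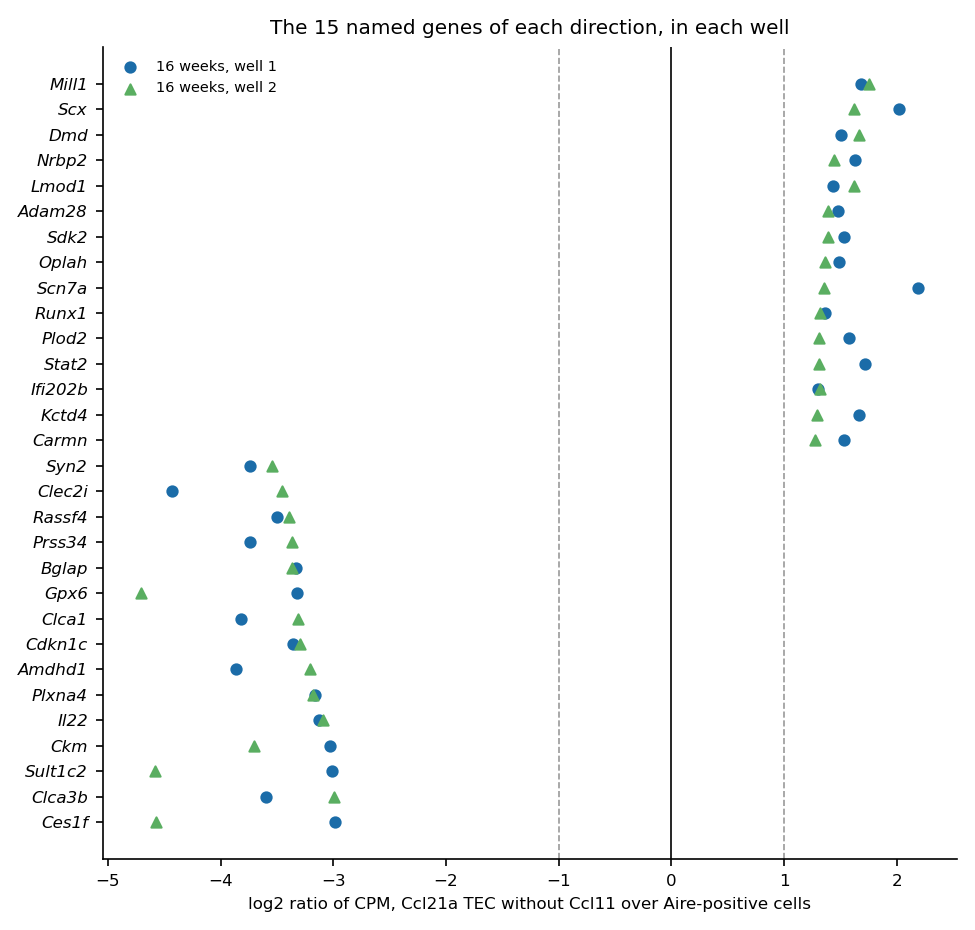
Log2 ratio of summed CPM, Ccl21a TEC without Ccl11 over Aire-positive cells, in each well (circles well 1, triangles well 2) for the 15 genes of each direction chosen by the smaller fold of the wells. Dashed lines mark a 2-fold ratio; the higher genes lie between 1.27 and 2.19 and the lower genes between -2.98 and -4.70.

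The named lower genes ran from 8.6-fold for Il22 to 16.1-fold for Gpx6 by the mean of the wells. They were the top 15 of 798 eligible genes, against 63 for the higher ones. The minimum of 200 UMIs in the class where a gene is high is a lower CPM in the deeper Aire-positive class, so these folds are not set against those of the higher genes. Most were near 0 in the members and rested on few UMIs there. Cdkn1c, the cyclin-dependent kinase inhibitor p57, was the only abundant gene among the 15, with 36.2 and 27.6 CPM in members and 372 and 271 CPM in Aire-positive cells. Its pooled ratio was 9.73-fold lower (95% interval 7.95 to 12.03). The others were Syn2 (synapsin 2), Bglap (osteocalcin), Ckm (muscle creatine kinase), Il22 (a cytokine of innate lymphoid cells), Prss34 (a mast cell protease), Clca1, Clca3b, Gpx6, Amdhd1, Sult1c2, Ces1f, Plxna4, Clec2i and Rassf4. Syn2 had 1.69 and 2.08 CPM against 22.6 and 24.3 CPM, and Il22 had 1.69 and 3.13 CPM against 14.7 and 26.6 CPM. Of the 9 tested genes in a list of self-antigen examples, Csn2 (a milk casein), Pcp4 and Gad1 were lower and none was higher. Csn2 stood at 83.4 and 106 CPM in members and 599 and 451 CPM in Aire-positive cells.

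The basal lamina anchor was described by 19 hemidesmosome and laminin genes, of which 2 were higher, 1 was lower and the median log2 ratio was 0.67. Dst, which encodes the hemidesmosome plakin dystonin, had 684 and 853 CPM in members and 323 and 389 CPM in Aire-positive cells. Lamb3, a chain of laminin-332, had 117 and 131 CPM against 44.6 and 55.7 CPM. The partner chain Lama3 (80.9 and 92.7 against 48.9 and 51.7 CPM) and the integrin Itga6 (506 and 481 against 270 and 282 CPM) were under 2-fold in each well. Itga2, a collagen receptor subunit, was lower, at 0 and 1.56 CPM against 6.38 and 3.22 CPM. It had 3 UMIs in all members, and its ratio in well 1 is a bound from the floor of 3 UMIs.

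A list of basal and other keratins with Trp63 and Perp held 8 genes that the rule did not use. Of these none was higher and 2 (Krt20 and Krt80, not basal keratins) were lower, with a median log2 ratio of 0.38. Trp63, the p53 family factor of basal epithelia, stood at 308 and 278 CPM in members and 126 and 148 CPM in Aire-positive cells, over 2-fold in well 1 only. Krt15, a basal keratin, had 32.9 and 50.02 CPM against 18.6 and 33.8 CPM. Krt17 differed less, at 1776 and 2265 CPM against 1507 and 1772 CPM. Of 17 junction genes none was higher, and the claudins Cldn3, Cldn4 and Cldn7, the tight junction protein Ocln and the connexin Gjb2 were lower. Cldn4 had 12.6 and 17.2 CPM against 54.3 and 62.0 CPM.

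Mature mTEC are the stage that includes the Aire-expressing cells. Of 10 markers of mature mTEC, 4 were lower, none was higher and the median log2 ratio was -0.97. The costimulatory ligand Cd80 stood at 9.27 and 13.6 CPM in members and 55.4 and 53.3 CPM in Aire-positive cells. Its partner Cd86 stood at 1.69 and 1.56 CPM against 6.54 and 7.86 CPM, on 5 UMIs in members. Cd40, the receptor for CD40 ligand on thymocytes, had 27.8 and 41.2 CPM against 113 and 106 CPM. Cdx1, an intestinal homeobox factor, had 12.6 and 21.4 CPM against 132 and 101 CPM. Fezf2, which drives self-antigen expression apart from Aire, had 153 and 151 CPM against 356 and 291 CPM, past the fold in well 1 only.

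Presentation genes gave 1 call. Of 11 genes of MHC class II presentation, the cathepsin Ctss was lower (30.3 and 27.6 CPM against 139 and 94.6 CPM), none was higher and the median log2 ratio was -0.76. H2-Aa stood at 2363 and 2641 CPM against 4790 and 4265 CPM, and Cd74, the invariant chain, at 7162 and 7721 CPM against 14338 and 11572 CPM. Of 13 genes of MHC class I presentation none passed in either direction (median -0.22). In the RANK and lymphotoxin list, Cd40, Nfkbia and Tnfrsf11b were lower among 16 tested genes. Nfkbia, the NF-kB inhibitor that is itself induced by NF-kB, had 418 and 487 CPM against 1050 and 1053 CPM. Tnfrsf11a, which encodes RANK, had 67.4 and 82.8 CPM against 136 and 123 CPM.

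Of 23 chemokines outside the rule, none was higher and 9 were lower, with a median log2 ratio of -0.98. The lower ones were Cxcl13, Ccl5, Ccl17, Ccl20, Cxcl2, Cxcl5, Cxcl9, Cxcl11 and Cxcl17. Of these, Ccl17, Cxcl5 and Cxcl17 had 10, 4 and 8 UMIs in all members. They reached the filter on UMIs only through the Aire-positive class, so their calls rest on few UMIs in members. Ccl20, the ligand of CCR6, had 19.4 and 14.6 CPM in members and 55.4 and 163 CPM in Aire-positive cells. Ccl19, the other ligand of CCR7, had 196 and 345 CPM against 524 and 445 CPM, with a ratio under 2 in well 2. Ccl19 stood at 461 and 446 CPM in fibroblast-rule cells.

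Signals between TEC and their surroundings gave few calls. In the Notch list (14 genes, median 0.69), the ligand Jag2 was higher, at 140 and 162 CPM against 60.8 and 68.0 CPM, and the modifier Mfng was lower. The ligand Jag1 (96.0 and 91.7 against 43.3 and 52.4 CPM) and the target Hes1 (194 and 151 against 75.7 and 77.4 CPM) passed 2-fold in well 1 only. In the BMP and Wnt list (19 genes, median 0.63), the activin antagonist Fst was higher at 106 and 84.9 CPM against 36.8 and 38.2 CPM, Wnt5b was higher on few UMIs (3.37 and 2.61 against 1.31 and 1.28 CPM), and Bmp2 was lower. Of 16 interferon response genes Stat2 alone was higher (median 0.66). Irf7 stood at 195 and 184 CPM against 82.4 and 107 CPM. Of 10 thymopoietic factors none was higher, and the Notch ligand Dll4 and the growth factor Igf1 were lower. Il7, the cytokine of early thymocyte survival, stood at 206 and 152 CPM against 79.1 and 91.1 CPM, past the fold in well 1 only.

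The other lists were as follows. Of 13 genes associated with TEC progenitors, Ly6d, Cldn3 and Cldn4 were lower and none was higher, and Ly6a, which encodes Sca1, had 1138 and 1217 CPM against 605 and 756 CPM and 1293 and 1309 CPM in fibroblast-rule cells. Of 10 genes of the Skint family and Mill1, Mill1 and Skint7 were higher and Skint1, Skint2, Skint4 and Skint9 were lower. Skint7 stood at 249 and 236 CPM against 118 and 117 CPM, and Skint1, which shapes dendritic epidermal T cells, at 32.9 and 42.2 CPM against 119 and 114 CPM. Of 15 cell cycle genes 8 were lower, among them Mki67 (15.2 and 32.3 against 94.5 and 74.0 CPM) and Top2a (27.8 and 33.9 against 131 and 108 CPM). Cfb and Cfi were lower among 12 complement genes, Ctsh, Ctsz and Cst6 among 12 cystatins and proteases, Trpm5 and Gnb3 among 8 tuft-like markers, Spib, Ccl20 and Ccl9 among 6 microfold-like markers, Grhl3 and Spink5 among 8 keratinocyte-like markers and Ackr2 among 4 scavenging receptors, with none higher in any of these. No immediate early or heat shock gene (19 tested) passed. Of 12 haematopoietic markers Cd52 and Laptm5 were lower, and the list summed to 380 and 390 CPM in members and 1270 and 1172 CPM in Aire-positive cells. Of 28 genes of the tagged proteins, 10 were lower and none was higher.

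**Figure D3:**
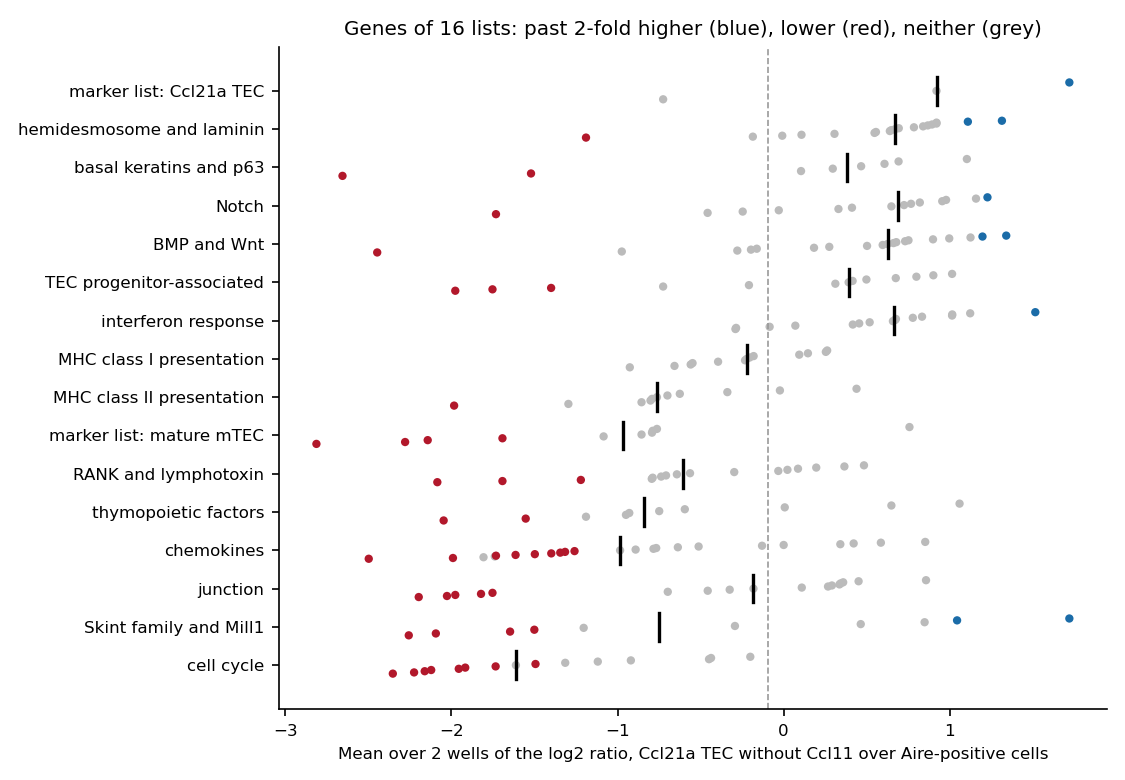
Mean over 2 wells of the log2 ratio (Ccl21a TEC without Ccl11 over Aire-positive cells) of each tested gene in 16 lists, with past 2-fold higher genes in blue, lower in red and others in grey. Black bars are list medians, from 0.92 for the Ccl21a TEC markers to -1.61 for the cell cycle, and the dashed line is the median of all tested genes, -0.09.

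At the surface, Sca1 set the members apart from Aire-positive cells. Tag counts were scaled to the mean tag total of a cell and are given as the mean of log2(count + 1), and a step was called where this differed by at least 0.5 in each of both wells. Of 27 tags, 10 were higher (37.0%) and 2 lower (7.41%). The scale matters here, since the members held a median of 2043 tag counts per cell and Aire-positive cells 7509. MHCII took 33.5% of all tag counts in members and 61.3% in Aire-positive cells, and UEA1 took 42.3% and 26.5%, so a lower MHCII count raises every other scaled tag by construction.

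Sca1, the protein of Ly6a, stood at 8.41 in both wells of members, at 6.04 and 6.23 in Aire-positive cells and at 9.03 and 8.98 in fibroblast-rule cells. Its difference was 2.28 ± 0.13 (SD, n = 2 wells). The median raw count was 168.5 in members and 76 in Aire-positive cells, so Sca1 was higher on the raw scale also, in cells with fewer tags. It was the only step upward among raw counts.

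MHCII and CD80 were lower on both scales. MHCII stood at 10.1 and 10.0 in members and at 10.97 and 10.87 in Aire-positive cells (difference -0.85 ± 0.02), with median raw counts of 450.5 and 4165. CD80 stood at 2.75 and 2.56 against 3.79 and 3.59 (difference -1.03 ± 0.01), with median raw counts of 3 and 26. The RNA of Cd80 was lower in the members as well. That of H2-Aa was below Aire-positive cells in each well but past the fold in a single well. A tag step of 0.5 in log2 is a smaller change than the 2-fold ratio asked of genes. The calls of the MHCII tag and of H2-Aa RNA therefore cannot be set against each other.

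The other upward steps depended on the scaling. Podoplanin, a mucin-like membrane protein, stood at 4.36 and 3.98 against 2.697 and 2.623 (difference 1.51 ± 0.22), with median raw counts of 7 and 5. CD63, a tetraspanin of endosomes, differed by 1.41 ± 0.22 and CD49a, an integrin chain, by 1.15 ± 0.30. Raw counts gave these 3 and CD73 small positive differences without a step. CD9, another tetraspanin, stood at 4.66 and 4.41 against 3.29 and 3.37 (difference 1.21 ± 0.23), and CD200, CD270 (HVEM), UEA1 and Epcam differed by 1.04, 0.98, 0.68 and 0.57. By raw counts the differences of CD270, UEA1 and Epcam were negative, at -0.58, -0.98 and -1.04, that of CD9 was -0.24, under the step, and that of CD200 was near 0 at -0.0034, with median raw counts of 4 in members and 3 in Aire-positive cells. UEA1 had a median raw count of 890 in members and 1700 in Aire-positive cells. CD86 (0.62 ± 0.38) and MadCAM1 (0.53 ± 0.09) passed 0.5 in well 1 only, and CD40 differed by -0.20 ± 0.02 with median raw counts of 7 and 25. The median raw count of CD86 was 3 in members and 3 in Aire-positive cells, while its RNA was lower in members on few UMIs. The Ly6D tag was at or near 0 in every class and cannot be set against the RNA of Ly6d.

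**Figure D4:**
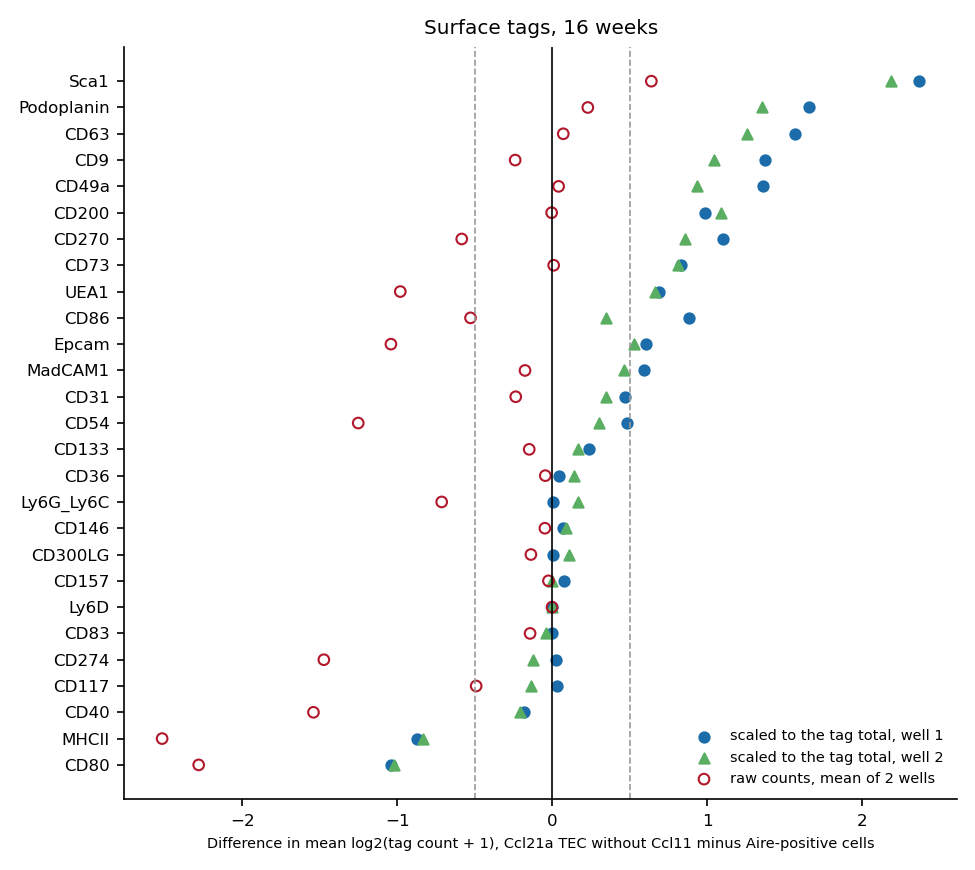
Difference in mean log2(tag count + 1), Ccl21a TEC without Ccl11 minus Aire-positive cells at 16 weeks, for 27 tags, scaled to the tag total in each well (filled) and as raw counts averaged over the wells (open). Sca1 is to the right and MHCII and CD80 are to the left on both scales, while UEA1, Epcam and CD270 lie on opposite sides.

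Compared with cells of the same rule with Ccl11, 5 of 10 cTEC markers were higher in the members and Chil3, Chil4 and Ly6d were lower. Of the 15 named genes, 6 passed with cells thinned to 2000 UMIs and 0 among the 37 and 11 cells without a stromal UMI, where all 15 had 3 UMIs or fewer in a class and well. In these few cells the sign of the mean log2 ratio turned for Ccl25, Prss16, Foxn1, Ly6d and Cyp2f2, at counts too low to tell a direction. Of 12605 genes tested, 211 were higher without Ccl11 (1.67%) and 60 lower (0.476%), with a median log2 ratio of 0.05. The thymoproteasome subunit Psmb11 had 51.4 and 107 CPM without Ccl11 and 9.86 and 9.10 CPM with it. The serine protease Prss16 had 217 and 595 CPM against 59.2 and 81.1 CPM, Tbata 687 and 1171 CPM against 133 and 195 CPM, and the chemokine Ccl25 312 and 722 CPM against 77.5 and 125 CPM. Foxn1, the master factor of TEC, had 78.3 and 74.5 CPM against 33.8 and 19.0 CPM. The other named higher genes were Crip3, Snhg11, Fxyd2, Tmem131l and Chga, the granin of neuroendocrine cells, and only 10 genes qualified.

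Few members held most of these cTEC transcripts. The 22 members (4.25%) with at least 0.5% of their UMIs on Psmb11, Prss16, Tbata and Ccl25, 5 of well 1 and 17 of well 2, held 73.2% of the UMIs of these genes in all members. Of cells with Ccl11, 1 (0.386%) reached that share, and of Aire-positive cells 90 (5.79%). Without these 22 cells, a setting chosen after the values were seen, Psmb11 had 25.9 and 12.5 CPM, and Psmb11, Prss16, Tbata, Ccl25, Crip3, Fxyd2 and Tmem131l were no longer past the fold. The cells were chosen by 4 of these genes and taken from the members alone, so a fall of Psmb11, Prss16, Tbata and Ccl25 followed from the choice and is a description only. Foxn1 (72.3 and 55.5 CPM), Snhg11 (245 and 166 CPM) and Chga were still past it. Among cells without a stromal UMI, Foxn1 had 2 and 4 UMIs in members and 0 and 3 in cells with Ccl11. For Chga, 2 cells held 50% of the members' UMIs. Against Aire-positive cells the counts without the 22 cells were 485 higher and 1644 lower.

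Lower than in cells with Ccl11 were 5 genes that qualified for naming. Chil3 and Chil4, chitinase-like lectins, had 40.4 and 71.4 CPM against 241 and 251 CPM, and 61.5 and 99.0 CPM against 268 and 295 CPM. They are close relatives, so reads that match both leave each level uncertain. Ly6d had 85.1 and 106 CPM against 224 and 395 CPM. Apoc1, an apolipoprotein, and Cyp2f2, a cytochrome P450 known from airway club cells, had log2 ratios of -1.27 ± 0.07 and -1.27 ± 0.34. Without the 22 cells rich in cTEC transcripts Apoc1 was no longer past the fold in both wells (mean log2 ratio -1.20). Among cells without a stromal UMI, Ly6d had 7 and 15 UMIs in members and 0 and 8 in cells with Ccl11, and Cyp2f2 5 and 8 against 0 and 1.

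Most lists showed no gene past the fold against cells with Ccl11. This held for the hemidesmosome and laminin list (18 tested), the list of keratins with Trp63 and Perp (6), junctions (17) and RANK and lymphotoxin (16). It also held for both MHC lists (11 and 13), interferon response (16), Notch (12), complement (11) and the Skint family (9). The monocyte chemokines Ccl7 and Ccl8 were lower (Ccl8 at 20.2 and 15.6 against 55.0 and 72.0 CPM), as were Mcam and Wnt10a. Cd80 and the stem cell factor gene Kitl were higher, at 9.27 and 13.6 against 4.23 and 5.79 CPM and at 30.3 and 45.9 against 12.7 and 21.5 CPM. The call of Cd80 rested on few UMIs, with 37 in all members, and the CD80 tag differed by -0.01 on average over the wells. Of 6 endothelial markers Cdh5, Kdr and Egfl7 were higher, and the list (none at 0) summed to 110 and 88.6 CPM against 33.8 and 57.1 CPM. Top2a and Ccnb2 were higher among 14 cell cycle genes. No tag passed a step in either direction (0.0% and 0.0%), with a difference of -0.50 for Sca1 and of -0.43 for Podoplanin on average over the wells.

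At 16 weeks Fcgbp, Krt19, C3, Mill1 and Ly6a were higher than in 1-week cells of the same rule, and most cell cycle genes and cTEC markers, Cxcl10 and Cxcl11 were lower. The share was 12.3% at 16 weeks and 4.08% of 2674 epithelial cells at 1 week (wells 3.37% and 5.04%). The median Ccl21a share of fibroblast-rule cells was 0.0421% at 16 weeks and 0.00863% at 1 week, so this background also differed by age. Each age was 1 pool, and age and pool cannot be told apart. A gene was called where each well of one age differed by 2-fold from each well of the other. Of 12289 genes, 650 were higher (5.29%) and 336 lower (2.73%) at 16 weeks, with a median log2 ratio of 0.07.

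Fcgbp, which encodes a mucus-associated IgG Fc-binding protein, had 3625 and 3744 CPM at 16 weeks and 332 and 357 CPM at 1 week, a pooled ratio of 10.8 (95% interval 9.77 to 11.9). Krt19 had 87.6 and 59.4 CPM against 3.10 and 4.91 CPM and Mill1 101.9 and 82.8 CPM against 10.9 and 9.81 CPM. At 1 week these values rest on 5 UMIs of Krt19 and 13 of Mill1. The pooled ratio of Krt19 was 17.6 (95% interval 7.44 to 54.9). Scn7a, Dmd, Chil4 and F3, the gene of tissue factor, were also among the 10 named higher genes, with 9, 10, 7 and 18 UMIs at 1 week. The complement gene C3 had 1081 and 1181 CPM against 102.3 and 114.5 CPM, and Apod had 64.0 and 75.0 CPM against 7.75 and 4.91 CPM. C3 and Apod stood at 5172 and 4888 CPM and at 1696 and 1858 CPM in 16-week fibroblast-rule cells, above the members. As given above, Scn7a stood there at a level similar to the members and Ly6a above them. The part of stromal RNA in these differences was not tested.

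The named lower genes at 16 weeks included the interferon-inducible chemokines Cxcl10 (354 and 398 CPM against 3413 and 2236 CPM) and Cxcl11 (48.0 and 26.1 CPM against 344 and 208 CPM) and the cytokine signal inhibitor Socs1 (58.1 and 58.9 CPM against 217 and 213 CPM). Isg20, Serpina3g and the stress factor Atf3 were lower too. Of the histone genes, Hist1h2ap had 84.2 and 73.5 CPM against 951 and 697 CPM, and Hist1h2ae was lower. Histone copies are near-identical, so the level of each is uncertain. Stmn1, a tubulin regulator, and Fabp5, a fatty acid carrier (1097 and 1093 CPM against 4261 and 4181 CPM), completed the set.

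By list, 9 of 15 cell cycle genes were lower at 16 weeks and none was higher (median -1.83), as were 6 of 10 cTEC markers (median -1.72). Of 13 genes associated with TEC progenitors, Ly6a, Ly6d, Plet1 and Cldn4 were higher and none was lower. At 1 week Plet1 had 3 UMIs and Cldn4 had 2, so both reached the filter through the 16-week cells and rest on few UMIs. Ly6a had 1138 and 1217 CPM at 16 weeks and 149 and 370 CPM at 1 week. Fezf2 (153 and 151 against 24.8 and 21.3 CPM) and Cd80 (3 UMIs at 1 week) were higher among 9 mature mTEC markers. Of 16 junction genes Cldn1, Cldn4, Cldn7 and Gjb2 were higher and Dsg2 was lower. Of 19 immediate early and heat shock genes, Hspa1a and Hspa1b were higher and Fos, Junb, Atf3, Ier2, Ier3 and Zfp36 lower. Irf1 and Rsad2 were lower among 16 interferon genes, and none of the 16 RANK and lymphotoxin genes passed. Some markers of other cell types passed by age as well. Of 8 haematopoietic markers Cd52, Laptm5 and Lyz2 were higher at 16 weeks and none was lower. The list median was -0.26, with mean log2 ratios of -0.93 for Trbc1, -0.46 for Trbc2, -1.30 for Lck and -0.98 for Cd8a, which did not pass, and the list of 12 summed to 380 and 390 CPM, against 171 and 263 CPM at 1 week. The mural marker Acta2 (428 and 689 CPM against 129 and 52.3 CPM) and the fibroblast marker Pi16 (29.5 and 29.7 CPM against 10.9 and 8.18 CPM) were also higher, each the only one past the fold among 5 mural and 4 fibroblast markers tested. The mural marker Rgs5 had a mean log2 ratio of -0.40. Of 6 endothelial markers none passed, and the list summed to 110 and 88.6 CPM at 16 weeks and to 27.9 and 258 CPM at 1 week. The 1-week wells thus stood apart for this list. Over the fibroblast markers tested the median was 1.19, with mean log2 ratios of 1.13 for Lum and 1.25 for Dpt. Of the 4 stromal genes that the rule used, which were not tested, Dcn had 549 and 628 CPM against 211 and 283 CPM (1.27), and Col1a1, Col1a2 and Col3a1 had -1.55, -1.04 and -1.20. The part of these cells in the differences by age was not tested.

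Among the tags, 3 were higher (11.1%) and 5 lower (18.5%) at 16 weeks. Sca1 stood at 5.72 and 5.84 at 1 week, so the 4 differences between wells of the 2 ages ran from 2.57 to 2.69. CD80 and CD9 were higher, by 0.85 and 0.75 on average, and CD40, Podoplanin, CD63, CD73 and Epcam were lower, by an average of -1.89 for CD40, -1.80 for Podoplanin and -1.76 for CD63. The median tag total of 1-week members was 6639, against 2043 at 16 weeks. The median raw count of Sca1 was 168.5 at 16 weeks and 56 at 1 week. That of CD80 was 3 at 16 weeks and 4 at 1 week and that of CD9 was 9 and 17, so the direction of CD80 and CD9 turned without the scaling. For the 5 lower tags the raw medians were lower at 16 weeks too.

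The contrast with Aire-positive cells was also taken at 1 week, where 109 cells were set against 321 Aire-positive cells. These cells share no library with the 16-week cells. Of 14487 genes, 493 were higher (3.4%) and 488 lower (3.37%). Among 14389 genes tested at both ages, 239 were higher at 16 weeks and 488 at 1 week, and 79 genes were in both sets, 33.1% of the 16-week set and 16.2% of the 1-week set. For lower genes the sets held 1203 and 484, with 232 in both, 19.3% and 47.9%. Mill1, Stat2, Lamb3, Skint7 and Fst were higher at both ages, and Cd80, Cdx1, Cldn3, Cldn4, Csn2 and Pcp4 were lower at both. In the 1-week cells of the rule Cd80, Cdx1, Cldn3, Cldn4 and Pcp4 had 3, 8, 6, 2 and 4 UMIs, and Csn2 had 47. Most of these lower calls thus rest on few UMIs there. At 1 week the interferon list had 6 of 16 genes higher (Stat2, Irf7, Isg15, Ifit3, Bst2 and Gbp3) and the hemidesmosome and laminin list 6 of 18, with Itgb4, Lamb3 and Lamb1 among them. In the same contrast 7 of 11 haematopoietic markers (Cd3e, Cd4, Trbc1, Trbc2, Cd52, Laptm5 and Lyz2) and 3 of 10 cTEC markers (Psmb11, Ly75 and Dll4) were lower than in 1-week Aire-positive cells, and their part was not tested.

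Within the members, expression was uneven for a minority of genes. The variance of counts over that expected from depth alone was compared for 7243 genes, with a median ratio of 1.17 in well 1 and 1.15 in well 2, and 403 genes (5.56%) were above 2 in both. Among genes with a known symbol, the nuclear RNA Malat1 (271.7 and 192.7) and Ccl21a (82.3 and 49.9) came first by the smaller ratio of both wells, and Cstb (12.9 and 85.2) was above Ccl21a in well 2. Most molecules of a gene could lie in few cells, as for Fxyd2 (2 cells held 50% of the UMIs), Cstb (3 cells), Tbata (4 cells), Tchh (16 cells) and Ctsl (17 cells), or be spread, as for Fcgbp (65 cells) and Jun (71 cells). Wfdc18, a secreted whey acidic protein, lay between them with 25 cells, as did the interferon-inducible Ifi27l2a (31 cells), Ifitm3 (34 cells) and the lipid carriers Apoe (37 cells) and Fabp4 (60 cells). Krt5 was found in 480 members and Krt14 in 444, while Plet1 was found in 30.

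The members were also described by bins of their Ccl21a share. Ccl21a, Krt5 and Krt14 were part of the rule, so their values over the bins are a description only. In the bins of 0.2% to 0.5%, 0.5% to 1% and 1% or more lay 294, 135 and 89 cells, with median depths of 3254, 4069 and 9900 UMIs and mitochondrial shares of 12.5%, 10.1% and 3.40%. Krt5 stood at 1039, 1532 and 2561 CPM in these bins and Krt14 at 655, 1080 and 2079 CPM. Ly6a stood at 667, 1070 and 1927 CPM and Apoe at 1698, 2640 and 3951 CPM. Cd80 stood at 16.0, 18.9 and 0 CPM in well 1 and at 19.8, 9.45 and 8.85 CPM in well 2, with no common order. Mill1 stood at 122, 100.7 and 85.6 CPM in well 1 and at 88.0, 79.4 and 81.4 CPM in well 2, so its order held in well 1 only. Itgb4 (219, 250 and 210 CPM over both wells) had no order. The scaled Sca1 tag was at 8.15, 8.79 and 8.70. Across single cells, Spearman's rho of Ccl21a share and depth was 0.46 in well 1 (n = 177 cells) and 0.37 in well 2 (n = 341 cells), as a description of cells that share a library. Depth, mitochondrial share and Ccl21a thus moved together, and their parts were not tested.

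**Figure D5:**
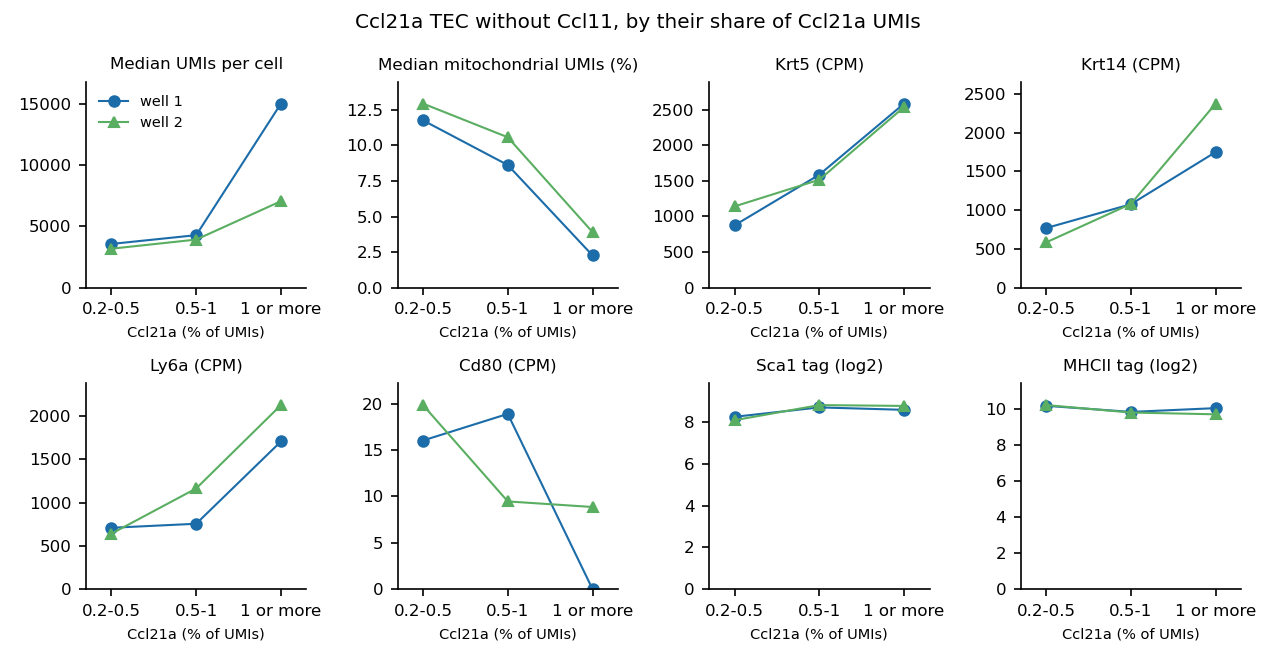
Ccl21a TEC without Ccl11 in 3 bins of their Ccl21a share (% of UMIs), for each well, with median depth and mitochondrial share, summed CPM of 4 genes and 2 scaled surface tags (mean log2). Krt5, Krt14, Ly6a and depth increase and the mitochondrial share decreases over the bins in both wells, while the Sca1 and MHCII tags change by under 1 unit.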

How the data were processed

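The authors used STARsolo 2.7.9a with mm10 and Ensembl gene models, set a minimum of 2000 UMIs per cell, and deposited raw counts of UMIs per gene and cell and of tags per cell, not normalised. The labels name kit version v2 and the methods v3. Per the methods, reads at up to 10 loci were kept in the alignment, UMIs that hit several genes were filtered and other settings were at default, and STARsolo's default does not count reads that match several genes. Cells were mapped to wells by the ending of their names. The members and lists were chosen with earlier results of these data known.

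UMIs were summed per class and well (python 3.11.15, pandas 2.3.3). Genes with 20 UMIs or more were called at 2-fold in each well. A count of 0 was set to a floor of 3 UMIs per class and well as a bound, and no fold was given where both classes were at or under 3 UMIs. Named genes were the 15 (10 for Ccl11 and age) per direction with the largest smaller fold and at least 200 UMIs in the higher class, leaving out predicted genes and genes of the rule, with all tags, the markers, list members and the 15 most uneven genes. The fibroblast rule and the removal of 22 members were chosen after seeing the data. Doublets were kept: scrublet (scanpy 1.11.5) marked 14 cells by its own limit, too few to have worked, and 253 at a set rate of 0.8% per 1000 cells, used as an alternative. The fold rule was run on simulated counts with set folds as a check of the code, and no result here rests on it. Alternatives were each well left out, other scalings, thinning, depth, fold and rule limits. Results of some genes are not reported here.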

Additional observations from a re-analysis of the deposited data

Results flagged for a closer look

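Among the named genes and list members past the fold at 16 weeks, 3 had a difference between Ccl21a TEC without Ccl11 and Aire-positive cells of the opposite sign in both wells at 1 week. Of these, Cxcl9 alone was past the fold at 1 week. Over all 14389 genes tested at both ages, 1 of 239 genes higher and 5 of 1203 genes lower at 16 weeks were past the fold the other way at 1 week. This criterion is stricter than an opposite sign, so it gives no background share for the count of 3. The difference between the ages was itself not tested, and each age was 1 pool. Cxcl9, an interferon-inducible chemokine, had log2 ratios of -1.32 and -1.20 at 16 weeks and 1.19 and 1.33 at 1 week, so the mean ratio at 16 weeks minus that at 1 week was -2.52. Cxcl11, of the same family, had -1.03 and -1.77 at 16 weeks and 0.54 and 0.28 at 1 week, a mean of -1.81 between the ages. Skint1 had -1.86 and -1.43 at 16 weeks and 0.52 and 0.54 at 1 week, a mean of -2.18 between the ages.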

How the results depend on the processing

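No paired analysis was possible because the results come from no test, and the wells that classes share are already used in the ratios within wells. Against Aire-positive cells (401 higher, 1679 lower), single wells gave 771 to 933 higher and 2680 to 3163 lower, as 1 well is an easier criterion. Thinning gave 205 and 729, a fold of 1.5 gave 1381 and 2900 (32.3% of calls higher, against 19.3%), and members with no Ccl11 UMI gave 1045 lower. Requiring no stromal UMI left 37 members, 11 cells with Ccl11 and 55 Aire-positive cells, and gave 101 and 159 (38.9% higher), with 6 of the 30 named genes past the fold. Of those 30, 21 passed after thinning and 23 with Ccl21a at 1% or more. Against cells with Ccl11 (211 and 60), single wells gave 415 to 512 and 192 to 235, thinning 111 higher (66.9% of calls higher, against 77.9%), a fold of 1.5 gave 617 and 290, and 0 against at least 5 Ccl11 UMIs gave 336 and 135. The mean over cells gave 99 lower, and no stromal UMI 4 and 12 (25% higher), where Ccl25 (-0.49), Prss16 (-0.26), Foxn1 (-0.20), Ly6d (0.046) and Cyp2f2 (1.09) reversed on 3 UMIs or fewer in a class and well, as all 15 named genes had, so their direction cannot be told there. Thinning shared 22 of the 211 and 6 of the 60 calls, and of the 15 named genes 6 passed after thinning, 7 under the mean over cells, 7 without the 22 cells rich in cTEC transcripts and 0 with no stromal UMI. By age (650 and 336), single wells gave 1170 to 1357 and 656 to 669, thinning 241 and 204 (54.2% higher, against 65.9%), and a fold of 1.5 gave 1335 and 828. TMM scaling moved the median of all genes to -0.10 against Aire-positive cells and 0.11 by age.

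Of the tags (10 higher, 2 lower), the centred log ratio gave 2 and 6, raw counts 1 and 9, and a total without MHCII and UEA1 3 and 4. CD270 (-0.080), UEA1 (-0.48) and Epcam (-0.54) reversed under the centred log ratio, CD9 (-0.24), CD270 (-0.58), UEA1 (-0.98) and Epcam (-1.04) under raw counts, where CD200 was near 0 (-0.0034), and UEA1 (-0.23) and Epcam (-0.32) under the reduced total. Against cells with Ccl11 single wells gave 0 to 2 tags lower. The share of 12.3% was 2.12% with Ccl21a at 1% or more, 6.65% with no Ccl11 UMI, 8.27% from 4000 UMIs, 17.6% when cells were thinned before the rule, and 11.4% to 14.5% in single wells. The cause was not tested for these values, beyond the fewer cells or the other criterion that a setting brings by construction. Depth limits genes under about 20 UMIs, and 1 pool per age limits every statement on age.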
